A study of Mus musculus with 9 samples.

Results

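The genes of dopamine synthesis, transport and breakdown were read in dissected mouse nigral tissue. They were chosen by name as 9 of the 55450 annotated genes: Th, Ddc and Gch1 for synthesis, Slc6a3 and Slc18a2 for transport, Aldh1a1, Maoa and Maob for breakdown, and the autoreceptor gene Drd2. Bulk RNA-seq libraries came from 3 groups of 3, taken 5 weeks after a lentiviral vector was injected into the substantia nigra. The control libraries are labelled only as GFP, and the study's text describes controls as CX3CR1-CreERT2 mice that received a Cre-inducible vector for destabilized GFP. The CX3-Cre libraries came from mice of the same CX3CR1-CreERT2 line, in which tamoxifen switches on Cre in microglia and other myeloid cells, injected with the Synuclein-expressing vector. The DAT-Cre libraries came from mice with Cre knocked in at Slc6a3, injected with that same vector, so that Cre was made in dopaminergic neurons. In the Synuclein-expressing vector the transgene stood behind the Ef1a promoter in a FLEX (Cre-inverted) cassette. The mice were male, and their age at injection is given as 8 weeks in one place and 9 weeks in another. Tamoxifen was given for 4 days to CX3CR1-CreERT2 mice and is not stated for DAT-Cre mice. DAT-Cre and control mice therefore differed in Cre line and vector, and possibly in tamoxifen, and these cannot be told apart. Neither the zygosity of the Cre alleles nor the number of animals behind a library is given, so p-values measure only the spread between libraries, which may be technical.

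Dopamine is made from tyrosine by tyrosine hydroxylase (Th), which needs tetrahydrobiopterin, a cofactor whose synthesis starts with GTP cyclohydrolase (Gch1), and then by aromatic amino acid decarboxylase (Ddc). The vesicular monoamine transporter (Slc18a2) loads it into vesicles, and the dopamine transporter (Slc6a3) takes it back up after release. Monoamine oxidases A and B (Maoa, Maob) degrade it to an aldehyde that Aldh1a1 can oxidise, and the D2 receptor (Drd2) acts on dopaminergic neurons as an autoreceptor. Th and Slc6a3 mark dopaminergic neurons, and within the midbrain Aldh1a1 marks only some of them. Ddc, Slc18a2 and Gch1 are shared with serotonergic neurons, and Maob is also found in astrocytes and serotonergic neurons.

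Promoter sequence is shown for Th, Ddc, Slc18a2 and Slc6a3, to show a synthesis pair and both transporters, which were all called higher in CX3-Cre. The windows are from RefSeq on GRCm38.p6, run from 250 bases before to 50 bases after an annotated start, and were found for 8 of the 9 genes. They were searched on both strands for TGACGTCA (the cAMP response element), AAAGGTCA (a nuclear receptor binding site) and TATAAA. Capitals mark a match to TGACGTCA or AAAGGTCA, and not to TATAAA. In Ddc the match is the reverse complement of AAAGGTCA, and the stretch of Slc6a3 holds none.
Th, chr7:142899996-142900075, minus strand: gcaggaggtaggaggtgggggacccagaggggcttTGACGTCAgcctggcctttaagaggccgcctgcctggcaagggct
Slc18a2, chr19:59260859-59260896, plus strand: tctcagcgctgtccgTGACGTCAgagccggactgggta
Ddc, chr11:11898145-11898224, minus strand: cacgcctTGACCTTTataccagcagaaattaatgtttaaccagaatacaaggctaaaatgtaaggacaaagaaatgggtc
Slc6a3, chr13:73536667-73536746, plus strand: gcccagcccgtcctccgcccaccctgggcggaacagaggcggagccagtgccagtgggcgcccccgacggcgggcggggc
The cAMP response element starts 45 bases before the Th start and 4 bases before the Slc18a2 start, and 1.79% of all 32851 windows hold one. The nuclear receptor binding site stands 73 bases before one Ddc start and is held by 1.51% of windows. TATAAA, also on the reverse strand, was found for Ddc, where it overlaps the nuclear receptor site, and for Gch1, and is held by 13.6% of windows. No match was found in the windows of Slc6a3, Aldh1a1, Drd2 and Maoa. These matches describe the sequence and say nothing about binding.

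Reads assigned to genes numbered 29378008 to 35595813 in the control libraries, 32892827 to 36586743 in the CX3-Cre libraries and 21592817 to 39475428 in the DAT-Cre libraries. DAT-Cre replicate 2 and CX3-Cre replicate 1 stood farthest from their groups. The squared difference between replicates over counting noise reached 18.7 in DAT-Cre and 7.33 in CX3-Cre, against at most 1.89 in the control. Vector transcripts are not among the counted genes, so the vectors could not be checked. Cx3cr1, the gene that holds CreERT2, was at 101 to 103 CPM (counts scaled to a common library size) in the libraries labelled control, 43.6 to 45.3 in those labelled CX3-Cre and 78.5 to 86.2 in those labelled DAT-Cre, although the study's text places the same knock-in in the first 2 groups. Markers of several cell types also differed between the groups. Their values are given after the dopamine genes, and their part in the results below was not tested. In bulk tissue, fewer cells of a type and less RNA per cell cannot be told apart.

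All 9 genes passed the filter on low counts. In CX3-Cre against control, 6 of the 9 rose (Th, Ddc, Gch1, Slc6a3, Slc18a2 and Drd2), Maob fell, and Aldh1a1 and Maoa did not pass the test (edgeR's quasi-likelihood test, Benjamini-Hochberg adjusted p below 0.05 over 20892 genes). Over all genes tested, 14.0% were called higher and 16.5% lower in this comparison. The median log2 fold change was 0.58 over the 9 genes and -0.0033 over all genes. In DAT-Cre against control, 5 fell (Th, Ddc, Slc6a3, Aldh1a1 and Maob) and 2 rose (Drd2 and Slc18a2), whereas Gch1 and Maoa did not pass. The background there was 32.0% higher and 27.9% lower, with medians of -0.25 over the 9 genes and -0.0038 over all genes. Both comparisons use the same 3 control libraries. In CX3-Cre against DAT-Cre, 7 were higher and none lower by this test, while Drd2 and Maob did not pass, against a background of 27.6% higher and 31.3% lower. Here the medians were 0.50 and 0.01. Without DAT-Cre replicate 2, the library that stood farthest apart, the 3 comparisons called 6 higher and 1 lower, 2 higher and 6 lower, and 7 higher and 0 lower. The shares of all genes tested were then 19.6% higher and 20.1% lower, 31.5% and 30.2%, and 30.4% and 30.8%. Without CX3-Cre replicate 1 the 3 comparisons called 6 and 1, 1 and 5, and 8 and 0. The shares there were 12.2% and 14.8%, 30.3% and 29.7%, and 27.3% and 28.4%. A change of at least 2-fold was reached by 1 member, Slc6a3, in CX3-Cre against DAT-Cre. Genes called at that size made up 3.58% of those tested in CX3-Cre against control, 15.9% in DAT-Cre against control and 15.4% in CX3-Cre against DAT-Cre.

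**Figure D1:**
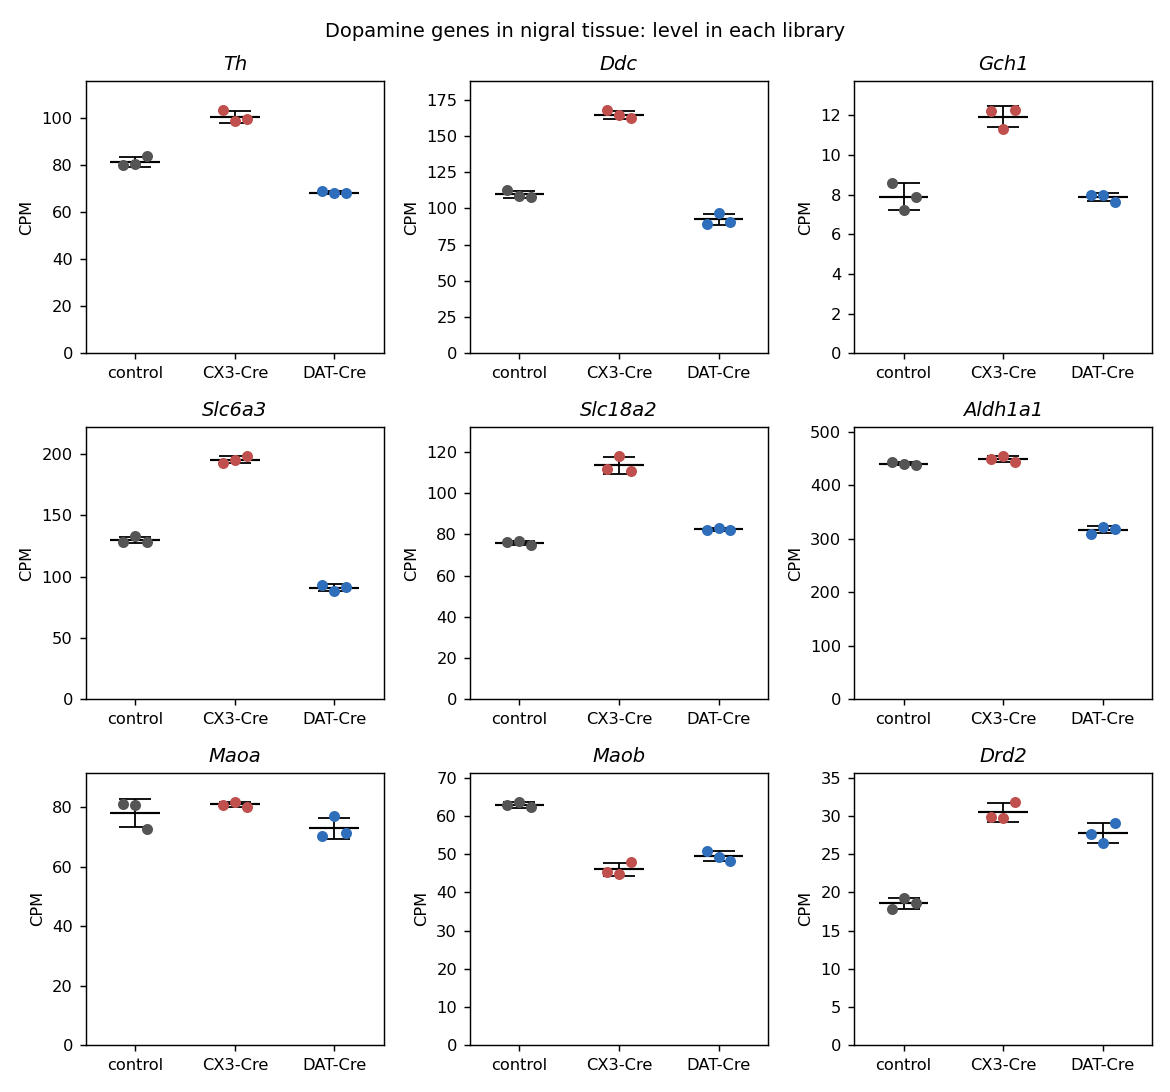
Level of each of the 9 genes in CPM (vertical axes, starting at 0) in the 3 libraries of each group; points are libraries, the wide line is the mean and the error bar is 1 SD. Slc6a3 ran from 193 to 198 CPM in CX3-Cre, 128 to 133 in control and 88.3 to 93.3 in DAT-Cre, without overlap, whereas Aldh1a1 fell below the control in the DAT-Cre libraries alone.

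Among the synthesis genes, all 3 rose in CX3-Cre, and Th and Ddc fell in DAT-Cre. Th (chr7:142892752-142931128, minus strand) measured 80.1, 80.6 and 84.1 CPM in the control libraries, 103, 98.7 and 99.7 in the CX3-Cre libraries and 69.0, 68.3 and 68.0 in the DAT-Cre libraries. The groups did not overlap, with means of 81.6 ± 2.16, 101 ± 2.496 and 68.4 ± 0.501 (SD, n = 3). Th was 1.23-fold the control in CX3-Cre, a log2 fold change of 0.30 (SE 0.043, adjusted p = 8.95e-05). In DAT-Cre it fell by 0.25 on the log2 scale (SE 0.044, adjusted p = 0.000154).

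Ddc (chr11:11814101-11898144, minus strand) followed the same order. It measured 113, 108 and 108 CPM in control, 168, 164 and 162 in CX3-Cre and 89.4, 97.0 and 90.4 in DAT-Cre. Every CX3-Cre library lay above every control library and every DAT-Cre library below. The log2 fold change was 0.59 in CX3-Cre (SE 0.045, adjusted p = 1.73e-07), a 1.501-fold rise, and -0.25 in DAT-Cre (SE 0.045, adjusted p = 0.000236). Gch1 (chr14:47153895-47189413, minus strand) was the least abundant member. It measured 8.57, 7.22 and 7.90 CPM in control, 12.2, 11.3 and 12.3 in CX3-Cre and 8.01, 8.0 and 7.64 in DAT-Cre. The CX3-Cre libraries were above all others, at 1.51-fold the control (log2 0.60, SE 0.081, adjusted p = 6.04e-05). Control and DAT-Cre overlapped, with adjusted p = 0.990 and a 95% interval of the log2 difference from -0.19 to 0.19.

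The 2 transporters moved together in CX3-Cre and apart in DAT-Cre. Slc6a3 (chr13:73536747-73578672, plus strand) measured 128, 133 and 129 CPM in control, 193, 195 and 198 in CX3-Cre and 93.3, 88.3 and 91.6 in DAT-Cre. It rose 1.503-fold in CX3-Cre (log2 0.59, SE 0.041, adjusted p = 7.26e-08) and was 0.70-fold the control in DAT-Cre (log2 -0.51, SE 0.042, adjusted p = 7.49e-08). In DAT-Cre mice the Cre insertion sits in this gene, so an effect of the allele and an effect of the transgene cannot be told apart there. Slc18a2 (chr19:59260896-59296012, plus strand) measured 76.3, 76.8 and 74.8 CPM in control, 112, 118 and 111 in CX3-Cre and 82.2, 83.1 and 82.1 in DAT-Cre. The rise in CX3-Cre was 1.49-fold (log2 0.58, SE 0.043, adjusted p = 1.34e-07). The DAT-Cre libraries all lay above the control libraries, by 0.12 on the log2 scale (SE 0.044, adjusted p = 0.0309). That call was lost with DESeq2 (adjusted p = 0.0841), with either strand's counts alone, and on leaving out any single library other than CX3-Cre replicate 2 or DAT-Cre replicate 2 (adjusted p from 0.0786 to 0.184). Scaling by library size alone gave a log2 fold change of -0.029, and scaling on pan-neuronal genes gave -0.50, called lower (adjusted p = 6.45e-08). Slc18a2 shares 2.12% of its exon bases with Gm29261 on the opposite strand, and the part of this overlap in its counts was not tested.

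**Figure D2:**
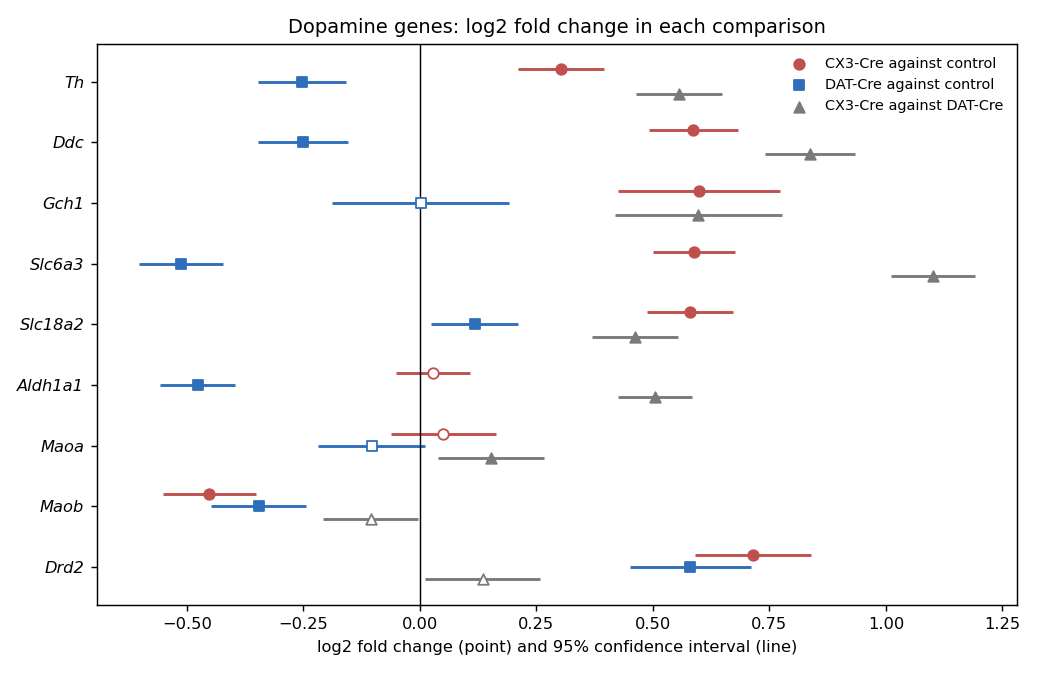
Log2 fold change (horizontal axis) of each gene in the 3 comparisons, with points for the estimate and lines for its 95% confidence interval; open points did not pass the adjusted p of 0.05. Slc6a3 shows the widest split, at 0.59 in CX3-Cre and -0.51 in DAT-Cre against control, whereas Maob lies below 0 in both.

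None of the 3 breakdown genes passed the test as higher in CX3-Cre. Aldh1a1 (chr19:20492715-20643465, plus strand), which oxidises the aldehyde made from dopamine, measured 444, 441 and 437 CPM in control, 449.6, 455 and 444 in CX3-Cre and 309, 323 and 318 in DAT-Cre. The control and CX3-Cre means, 441 ± 3.22 and 449 ± 5.70 (SD, n = 3), differed by a log2 value of 0.028 (95% interval -0.052 to 0.11, adjusted p = 0.613). In DAT-Cre it fell by 0.48 on the log2 scale (SE 0.037, adjusted p = 4.44e-08), to 0.72-fold.

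Maoa (chrX:16619698-16687818, plus strand) did not pass the test against control in either group. It measured 81.0, 81.0 and 72.8 CPM in control, 80.9, 81.9 and 80.3 in CX3-Cre and 70.4, 77.1 and 71.4 in DAT-Cre. Control replicate 3 lay among the DAT-Cre libraries. The log2 fold change was 0.050 in CX3-Cre (95% interval -0.063 to 0.16, adjusted p = 0.516) and -0.10 in DAT-Cre (95% interval -0.22 to 0.011, adjusted p = 0.110). The DAT-Cre value passed, as lower, without control replicate 3 (-0.17, adjusted p = 0.0194) or DAT-Cre replicate 2 (-0.15, adjusted p = 0.00577), with genes of at least 10 counts (-0.18, adjusted p = 0.00877) and on the reverse (-0.15, adjusted p = 0.0386) or forward strand alone (-0.22, adjusted p = 0.00355). It also passed with scaling by library size alone (-0.25) and on pan-neuronal genes (-0.72), so that whether Maoa fell in DAT-Cre depended on the setting.

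Maob (chrX:16709282-16817366, minus strand) was lower than control in both groups. It measured 62.9, 63.8 and 62.3 CPM in control, 45.4, 44.8 and 48.0 in CX3-Cre and 51.0, 49.2 and 48.4 in DAT-Cre. The control libraries stood above all the others. It fell by 0.45 on the log2 scale in CX3-Cre (SE 0.047, adjusted p = 4.33e-06) and by 0.35 in DAT-Cre (SE 0.047, adjusted p = 1.61e-05). Astrocytes are one known site of Maob, and astrocyte markers were lower in part. Of 8 markers, 6 were lower in CX3-Cre and none higher, where 16.5% of all genes tested were lower and 14.0% higher. In DAT-Cre 4 were lower, Sox9 was higher, and Aldh1l1, Slc1a2 and Slc1a3 did not pass. There 27.9% of all genes tested were lower and 32.0% higher. The median log2 fold change of the 8 was -0.54 in CX3-Cre and -0.13 in DAT-Cre. Their summed level was 6025 to 6042 CPM in control, 3762 to 3992 in CX3-Cre and 3973 to 4187 in DAT-Cre, and no marker of the list was at 0 throughout. The part of this in the Maob values was not tested.

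Drd2 (chr9:49340627-49408177, plus strand) rose in both groups. It measured 17.9, 19.2 and 18.6 CPM in control, 29.9, 29.7 and 31.9 in CX3-Cre and 27.7, 26.5 and 29.2 in DAT-Cre. Every library of both groups was above every control library. The rise was 1.64-fold in CX3-Cre (log2 0.71, SE 0.058, adjusted p = 3.87e-07) and 1.495-fold in DAT-Cre (log2 0.58, SE 0.060, adjusted p = 9.41e-07). Scaling on pan-neuronal genes turned the DAT-Cre value to -0.040. Drd2 is also expressed in pituitary cells. Pituitary markers, led by Gh and Prl, summed to 61.6 to 64.2 CPM in control, 6.12 to 6.47 in CX3-Cre and 18.5 to 23.6 in DAT-Cre, and the part of this tissue in the Drd2 values was not tested. Of 8 pituitary markers 4 could be tested: 3 were lower in CX3-Cre, 2 were lower in DAT-Cre, and Prl had 0 counts in every DAT-Cre library. The 6 striatal neuron markers summed to 122 to 125 CPM in control, 95.1 to 99.1 in CX3-Cre and 129 to 146 in DAT-Cre. Of them, 1 was higher and 4 lower in CX3-Cre, and 2 were higher and 0 lower in DAT-Cre. The background was 14.0% higher and 16.5% lower in CX3-Cre, and 32.0% and 27.9% in DAT-Cre. The part of striatal neurons in the Drd2 values was not tested.

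Between the 2 groups that received the Synuclein-expressing vector, the widest gap was in Slc6a3, which was 2.14-fold higher in CX3-Cre (log2 1.10, SE 0.042, adjusted p = 2.2e-11). Ddc was higher by 0.84 (adjusted p = 8.03e-10), Gch1 by 0.60 (adjusted p = 2.05e-05) and Th by 0.56 (adjusted p = 4.39e-08) on the log2 scale. Aldh1a1 was higher by 0.50 (adjusted p = 2.44e-08) and Slc18a2 by 0.46 (adjusted p = 3.03e-07). The gap in Maoa was 0.15 (adjusted p = 0.0226), and this call was lost without CX3-Cre replicate 2 (adjusted p = 0.0763) or without DAT-Cre replicate 1 (adjusted p = 0.0541). Drd2 differed by 0.13 (95% interval 0.011 to 0.26, adjusted p = 0.0576) and Maob by -0.11 (95% interval -0.21 to -0.0038, adjusted p = 0.0700). The Drd2 difference passed on leaving out control replicate 1, 2 or 3, CX3-Cre replicate 1 or DAT-Cre replicate 3 (adjusted p from 0.0259 to 0.0483). It also passed with DESeq2 size factors (0.15, adjusted p = 0.0413), genes of at least 10 counts (0.21, adjusted p = 0.0062), forward-strand counts (0.26, adjusted p = 0.0061), library size alone (0.33) and scaling on pan-neuronal genes (0.67). These mice also differed in Cre line, and possibly in tamoxifen.

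Ratios within a library, which do not depend on library scaling, set the genes against Th. They are given as a description, without a test. The Slc6a3 to Th count ratio was 1.53 to 1.65 in control, 1.87 to 1.99 in CX3-Cre and 1.29 to 1.35 in DAT-Cre, and did not overlap between groups. The Drd2 to Th ratio was lowest in control (0.222 to 0.239), intermediate in CX3-Cre (0.289 to 0.320) and highest in DAT-Cre (0.388 to 0.429). For Maob to Th the low group was CX3-Cre, at 0.439 to 0.481, against 0.741 to 0.791 in control and 0.711 to 0.739 in DAT-Cre. Ddc to Th overlapped between control (1.29 to 1.41) and DAT-Cre (1.30 to 1.42) and was 1.62 to 1.66 in CX3-Cre. The ratio of the vesicular to the plasma membrane transporter, Slc18a2 to Slc6a3, overlapped between control (0.578 to 0.594) and CX3-Cre (0.558 to 0.606) and was higher in DAT-Cre (0.881 to 0.941). Slc6a3 carries the Cre insertion in DAT-Cre, so an effect of the allele on its ratios there cannot be told apart.

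**Figure D3:**
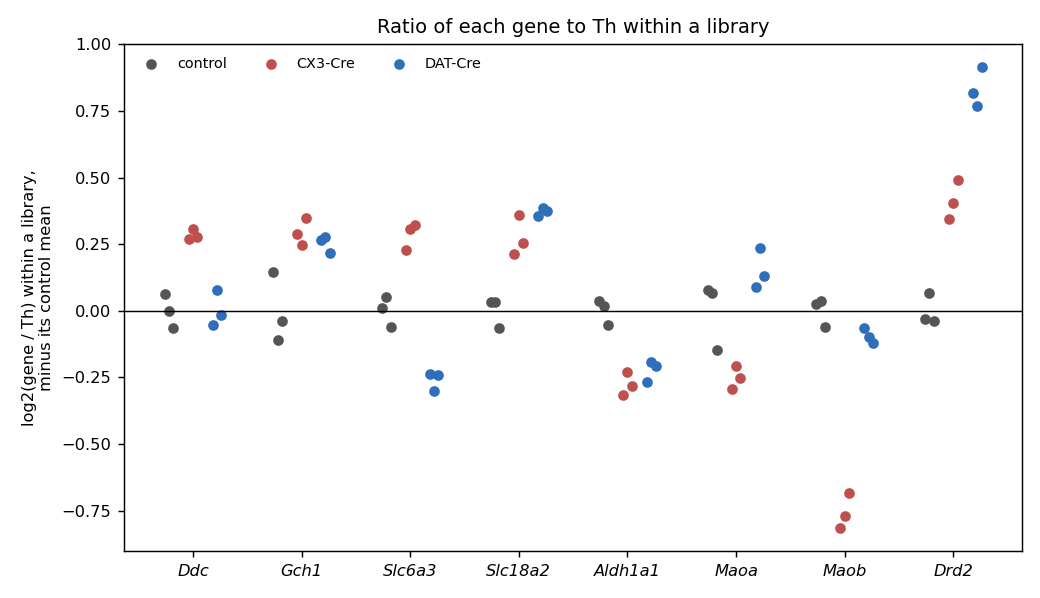
Log2 ratio of each gene's count to that of Th within a library, minus the mean of that ratio in the control libraries (vertical axis), with 1 point per library. Drd2 stands highest in DAT-Cre, Maob stands lowest in CX3-Cre, and Slc6a3 lies above 0 in CX3-Cre and below 0 in DAT-Cre, where it carries the Cre insertion.

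Per kilobase of exon (RPKM, the CPM divided by exon length in kilobases), Aldh1a1 was the most abundant member in control, at a mean of 89.3 ± 0.652 (SD, n = 3). Slc6a3 (37.6 ± 0.746), Th (34.5 ± 0.912), Ddc (24.6 ± 0.572), Maob (22.6 ± 0.266), Maoa (18.8 ± 1.14) and Slc18a2 (14.5 ± 0.200) followed, and Drd2 (7.29 ± 0.268) and Gch1 (1.26 ± 0.108) were lowest. In DAT-Cre, where Slc6a3 carries the Cre insertion, Th (29.0 ± 0.212) stood above Slc6a3 (26.4 ± 0.729), the reverse of control. The means of Maob (17.8 ± 0.477) and Maoa (17.5 ± 0.873) there did not differ beyond their spread. In CX3-Cre, Slc18a2 (21.7 ± 0.759) stood above Maoa (19.4 ± 0.193) and Maob (16.5 ± 0.611).

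Around the 9 genes, 28 others of cofactor synthesis, breakdown, dopamine reception and monoamine handling were listed, and 25 could be tested. In CX3-Cre against control 6 rose and 6 fell, in DAT-Cre against control 10 rose and 4 fell, and in CX3-Cre against DAT-Cre 6 were higher and 8 lower. Their median log2 fold changes were -0.048, 0.14 and 0.00043. The percentages given above for all genes tested are the background of these counts, and nothing particular to the 28 is read from them. The 6 genes of tetrahydrobiopterin synthesis and recycling showed 2 rises and no fall in CX3-Cre, and 2 rises and 2 falls in DAT-Cre. Of the 2 rises in CX3-Cre, that of Gchfr was lost on the reverse (adjusted p = 0.131) or forward strand alone (adjusted p = 0.0583) and without control replicate 2 or 3 or CX3-Cre replicate 3 (adjusted p from 0.0558 to 0.0936). Of the 4 other dopamine receptors, only Drd3 passed, lower in CX3-Cre by 1.05 on the log2 scale (adjusted p = 0.0293) at levels of 0.208 to 0.260 CPM against 0.385 to 0.591 in control. That call was lost with DESeq2 (adjusted p = 0.0709) and without control replicate 1 or 3 or any CX3-Cre library (adjusted p from 0.0555 to 0.117).

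The serotonergic genes Tph2 and Slc6a4 were called higher in both groups, and scaling on pan-neuronal genes turned their DAT-Cre values to -0.40 and -0.024. Tph2, the serotonin-synthesis hydroxylase of neurons, was at 9.17 to 9.36 CPM in control, 16.7 to 16.9 in CX3-Cre and 10.1 to 12.4 in DAT-Cre. The log2 fold changes were 0.86 (adjusted p = 8.3e-07) and 0.22 (adjusted p = 0.0295), and the second was lost without any one control library, CX3-Cre replicate 1 or 3, or DAT-Cre replicate 2 (adjusted p from 0.0556 to 0.165). It was also lost with the DESeq2 test (adjusted p = 0.0648), genes of at least 10 counts, the 2 groups alone, library size alone (0.076, adjusted p = 0.432) and forward-strand (0.22, adjusted p = 0.104) or reverse-strand counts (0.060, adjusted p = 0.653). Slc6a4, the serotonin transporter, was at 3.93 to 4.20, 7.17 to 7.54 and 6.17 to 6.24 CPM, with log2 fold changes of 0.85 (adjusted p = 4.98e-06) and 0.60 (adjusted p = 6.74e-05). Over the 6 serotonergic markers, 3 rose and 1 fell in CX3-Cre, and 4 rose in DAT-Cre (Tph2, Slc6a4, Gata2 and Gata3). Of all genes tested, 14.0% rose and 16.5% fell in CX3-Cre, and 32.0% rose in DAT-Cre. The sums of the 6 markers were 43.2 to 45.3 CPM in control, 52.6 to 56.3 in CX3-Cre and 60.9 to 64.7 in DAT-Cre. The list did not move as one: in CX3-Cre against DAT-Cre, Tph2 and Slc6a4 were higher while Gata2, Gata3 and Htr1a were lower. Since Ddc, Slc18a2 and Gch1 are also serotonergic genes, the part of these neurons in their values was not tested. The noradrenergic markers Dbh and Slc6a2 were at most 0.151 and 0.132 CPM in any library, near the level of 3 counts, and Dbh had 0 counts in every CX3-Cre library.

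Hdc, which makes histamine, showed the widest change of the 28 in DAT-Cre, with 6.01 to 7.03 CPM in control, 3.15 to 4.07 in CX3-Cre and 21.98 to 24.7 in DAT-Cre. The log2 fold changes were -0.89 (adjusted p = 3.41e-05) and 1.87 (adjusted p = 3.84e-10), and CX3-Cre against DAT-Cre gave -2.76 (adjusted p = 1.45e-11). The plasma membrane monoamine transporter Slc29a4 rose by 1.41 in DAT-Cre (adjusted p = 3.6e-09). Sult1a1 (a sulfotransferase) and Pts (tetrahydrobiopterin synthesis) were the lowest called genes there, at -0.40 (adjusted p = 0.000883) and -0.38 (adjusted p = 0.00084). In CX3-Cre against DAT-Cre, Gchfr, the feedback regulator of Gch1, was higher by 0.71 (adjusted p = 0.0145, but 0.0852 without DAT-Cre replicate 1) and Tph2 by 0.63 (adjusted p = 4.38e-06). Aldh1b1, a mitochondrial aldehyde dehydrogenase, was lower by 1.196 on that scale, at 4.30 to 4.79 CPM against 9.90 to 11.0.

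Other markers of midbrain dopaminergic neurons, 11 genes that are not members, were detected in the tissue. Of these, 8 rose in CX3-Cre and none fell by the test, although the call of 1 of the 8, Ret, was lost under most settings. In DAT-Cre 6 rose and 1, the nicotinic receptor subunit Chrna6, fell. Over all genes tested, 14.0% rose in CX3-Cre, and 32.0% rose and 27.9% fell in DAT-Cre. The summed level of the 11 was 181 to 185 CPM in control, 237 to 242 in CX3-Cre and 213 to 245 in DAT-Cre. In DAT-Cre this list thus lay above control while Th, Ddc, Slc6a3 and Aldh1a1 lay below. The mean sum was 1.31-fold the control in CX3-Cre and 1.27-fold in DAT-Cre. For the 10 pan-neuronal genes given below it was 1.06-fold and 1.54-fold. Chrna6 measured 29.3 to 30.7 CPM in control, 48.6 to 52.1 in CX3-Cre and 19.2 to 22.05 in DAT-Cre. Pitx3, a transcription factor of these neurons, rose by 0.62 in CX3-Cre (adjusted p = 0.0151), and its log2 fold change in DAT-Cre was -0.051 (adjusted p = 0.839).

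Markers of other cells differed as well. The background of their counts against control was 14.0% higher and 16.5% lower in CX3-Cre, and 32.0% and 27.9% in DAT-Cre. The 10 pan-neuronal genes summed to 4962 to 4993 CPM in control, 5212 to 5305 in CX3-Cre and 7618 to 7688 in DAT-Cre, where 9 of them were higher than control. When libraries were scaled on these genes, the median log2 fold change of all genes in DAT-Cre moved by -0.62, and 8 of the 9 dopamine genes were called lower, as were 73.6% of all genes tested. The 5 GABAergic markers summed to 1056 to 1069 CPM in control, 993 to 1027 in CX3-Cre and 1860 to 1945 in DAT-Cre. All 5 were higher in DAT-Cre than in control, and in CX3-Cre 1 was higher and 3 lower. The 7 microglial markers summed to 645 to 655, 444 to 456 and 388 to 401 CPM, with 6 lower in the libraries labelled CX3-Cre and 7 lower in DAT-Cre than in control. A list of 27 inflammatory genes that the study named from these same samples, and which is therefore no independent evidence, had 5 higher and 6 lower in CX3-Cre against control, and 24 lower in DAT-Cre. Choroid plexus markers, led by Ttr, summed to 45.7 to 46.5 CPM in control, 1472 to 1581 in CX3-Cre and 872 to 1042 in DAT-Cre. No marker of these lists was at 0 in all libraries. The levels of these cell type markers differed between the groups, and their part in the values of the dopamine genes was not tested.

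**Figure D4:**
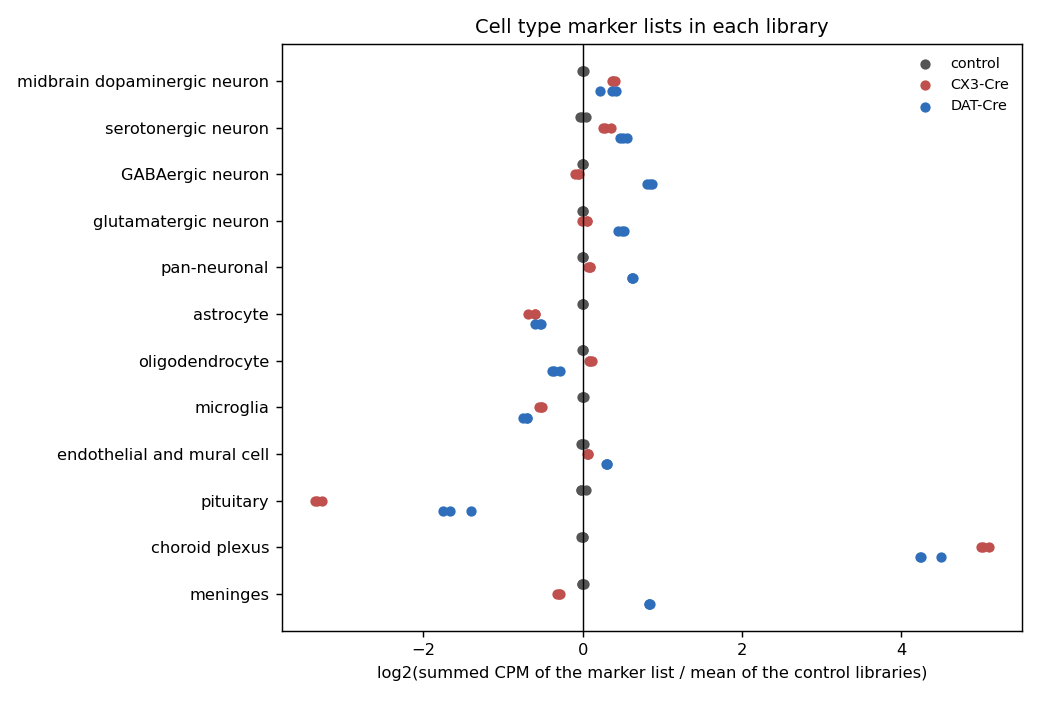
Summed CPM of each cell type marker list in each library, as log2 of its ratio to the mean of the control libraries (horizontal axis), with 1 point per library. The midbrain dopaminergic list, without the 9 genes, is above control in both other groups, while microglial, astrocyte and pituitary lists are below and the choroid plexus list is far above.

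The genes with a pattern most like Th over the 9 libraries were Bak1, Hnrnpdl, Mill2, Acot9 and Cpne7. Likeness was the root mean square difference of log2(CPM + 0.5), each gene centred on its own mean, and these 5 differed from Th by 0.0402 to 0.0542. The nearest member to Th was Aldh1a1, at 0.124. The 5 were picked as the nearest of all genes tested, so nothing is read from members lying farther. Those most like Slc6a3 were Gm45767, Adamts16, A430106G13Rik, B230206H07Rik and Chrna6, at 0.0641 to 0.0925, and the nearest member was Ddc, at 0.137. A430106G13Rik averaged 0.688 CPM in control, 1.23 in CX3-Cre and 0.259 in DAT-Cre, levels at which the added 0.5 shrinks differences. Its log2 fold change in DAT-Cre against control was -1.43, where that of Slc6a3 was -0.51. Of the dopaminergic marker list, only Chrna6 was among these 10. Gm45767 lies inside Pllp on the opposite strand. Its log2 fold change in DAT-Cre, -0.49, became 0.26 and 0.29 in the counts of each strand alone. Its value therefore depended on how reads were counted, and the part of Pllp in it was not tested. The DAT-Cre value of B230206H07Rik, -0.46, became -0.099 on the reverse and -0.015 on the forward strand alone, and Adamts16 and A430106G13Rik also lost calls in single-strand counts.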

How the data were processed

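RNA was from manually dissected nigral tissue with an RNA integrity number of at least 9, made into libraries with a stranded kit and read as 76 bases. The authors deposited raw counts per gene for each library, in the layout of STAR, on mm10. Their text also names Trimmomatic, featureCounts and DESeq2. All 55450 gene identifiers matched GENCODE M21. Counts combining both strands were used, since either strand held nearly equal shares. Rows that name no gene were left out. Of these, reads outside genes made up 9.82% to 10.0% in control, 8.36% to 9.47% in CX3-Cre and 5.45% to 5.58% in DAT-Cre. The part of this difference in the results was not tested.

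edgeR 4.0.16 in R 4.3.3 was used (TMM scaling, filterByExpr, robust quasi-likelihood test over 9 libraries in 3 groups, Benjamini-Hochberg adjusted p below 0.05). The same fit was also run on simulated counts, with means and a single common spread taken from these libraries. The unequal spread of the groups was not simulated, so nothing is read from that run. CPM were counts per TMM-scaled library size. A count of 3, the detection floor, was 0.0779 to 0.151 CPM, which covers counting error only. DESeq2 1.42.0, other scalings, filters, single strands, a replicate block and leaving out libraries were alternatives.

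Members and lists were chosen with earlier results of these data known. All members were named, with per comparison the 2 highest and 2 lowest called pathway genes, Dbh, Slc6a2, Tph2 and Slc6a4, 1 or 2 markers of a list, and the 5 genes most like Th and Slc6a3. Cx3cr1, the inflammatory list and a few pathway genes and markers were added after values were seen. The counts of the breakdown list are not reported here. Letters A to C of library titles are replicates 1 to 3.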

Additional observations from a re-analysis of the deposited data

Results flagged for a closer look

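The difference from control differed between the CX3-Cre and DAT-Cre groups in 7 of the 9 genes, by the edgeR contrast of the 2 groups, all higher in CX3-Cre, where 27.6% of all genes tested were higher and 31.3% lower. The differences, CX3-Cre minus DAT-Cre on the log2 scale, were 1.10 for Slc6a3, 0.84 for Ddc, 0.60 for Gch1, 0.56 for Th, 0.50 for Aldh1a1, 0.46 for Slc18a2 and 0.15 for Maoa. Slc6a3 carries the Cre insertion in DAT-Cre mice, and the groups also differ in Cre line, so that no effect of the vector can be set apart. The Maoa call was lost without CX3-Cre replicate 2 or without DAT-Cre replicate 1. Groups of 3 were not tested for outlying samples.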

How the results depend on the processing

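Over 513 values of the members under alternatives, 457 kept their direction and side of the threshold, 16 lost a call and 17 gained one. In 5 the sign changed with a call on one side or the other, and in 18 values that were called in neither fit the sign also changed, mostly Gch1 in DAT-Cre against control. The count of members higher in DAT-Cre against control, 2, was 1 with DESeq2 size factors, library size alone, genes with at least 1 count, at least 10 counts in every library, the DESeq2 test, reverse-strand counts, forward-strand counts and the 2 groups alone, and 1 to 2 on leaving out single libraries, because the Slc18a2 call was lost. The share of all genes called higher in that comparison was 14.8% to 33.1% under these settings and 27.5% to 31.5% on leaving out single libraries. Under library size alone the Slc18a2 value was -0.029, and 8916 genes were higher in CX3-Cre against DAT-Cre. Library size alone moved the median of all genes by -0.15 in DAT-Cre, and calls that were higher made up 59.0%, 37.8% and 66.8% in the 3 comparisons. Scaling on pan-neuronal genes moved that median by -0.62 in DAT-Cre and -0.082 in CX3-Cre, and gave shares higher of 25.6%, 7.66% and 88.7%. It called 1763 genes higher in CX3-Cre against control, 1276 higher and 15373 lower in DAT-Cre against control, with 0 members higher and 8 lower, and 14264 higher and 1817 lower in CX3-Cre against DAT-Cre. It turned the DAT-Cre against control values of Slc18a2 to -0.50, Gch1 to -0.62, Drd2 to -0.040, Tph2 to -0.40, Slc6a4 to -0.024, Gchfr to -0.60 and Ret to -0.015, and the CX3-Cre against DAT-Cre values of Maob to 0.43 and Ret to 0.11. Relative to the shifted median, Drd2 stood at 0.58 and Slc18a2 at 0.12. Gm45767 in DAT-Cre became 0.26 and 0.29 in reverse-strand and forward-strand counts. The cause was not tested.

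Library letters shared between groups did not mark pairs (9 correlations of deviations, -0.24 to 0.069). With the replicate block the members called were 6 higher and 1 lower, 2 higher and 5 lower, and 7 higher and 0 lower. The shares of all genes tested were 12.8% higher and 15.2% lower, 31.3% and 26.9%, and 26.6% and 30.6%. Genes called higher in CX3-Cre against control numbered 2677 against 2930. The block ended the Ret call in CX3-Cre against control (adjusted p = 0.0576). Leaving out single libraries gave 6 to 6 and 1 to 1 members, 1 to 2 and 5 to 6, and 6 to 8 and 0 to 0 in the same order. The shares of all genes tested were then 9.5% to 19.6% higher and 12.4% to 20.1% lower in CX3-Cre against control. They were 27.5% to 31.5% and 24.8% to 30.2% in DAT-Cre against control. In CX3-Cre against DAT-Cre they were 24.4% to 30.4% and 27.3% to 30.8%.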
